A study of Homo sapiens with 6 samples.

Results

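The genes of the collagen chains, the alpha chains from which every collagen molecule is built, were described in OVCAR5 ovarian cancer cells that overexpressed METTL3. They were taken from the deposited count file by name: each row whose Ensembl gene identifier, without its version, maps in GENCODE 44 to a protein-coding gene called COL, a number, A and a number, with antisense transcripts and pseudogenes left out. This gave 44 genes of the 60649 gene rows, and all 44 had at least 1 count. The rule uses names only, although the family was picked for description with earlier results of these data known.

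A collagen molecule is a rope of 3 alpha chains wound into a triple helix, and each chain carries long runs of a short repeat that begins with glycine. Fibrillar chains form the tensile fibrils of connective tissue, type IV chains form the sheet of basement membranes, and type VI chains form beaded filaments. FACIT chains sit on the surface of fibrils, anchoring and network chains tie or brace sheets, multiplexins lie in basement membrane zones, and transmembrane collagens stay attached to the cell. Fibroblasts are the main makers of fibrillar collagen in tumours, whereas carcinoma cells make a more limited set.

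OVCAR5 is an established human ovarian carcinoma line, labelled here as epithelial. One group of cells stably carried a lentiviral METTL3 overexpression construct and the other a lentivirus with the empty vector, and both were selected with puromycin and grown in RPMI-1640 with serum, with no cisplatin named. METTL3 is the catalytic subunit of the complex that writes N6-methyladenosine (m6A) on mRNA, and the study asked which transcripts change when it is forced up. Each group had 3 RNA-seq libraries, called METTL3 and vector replicates 1 to 3. The series' own design text calls the controls parental cells, while its treatment protocol and the study's methods describe the empty vector. Nothing states that the libraries of a group came from separate cultures or transductions, so p-values measure the spread between these libraries, which may be technical.

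The libraries held from 96633925 to 125463386 counts. Levels are given as CPM (the share of a library's counts that falls on a gene, rescaled to a common library size by TMM), always in the order of replicates 1, 2 and 3. METTL3 itself stood at 152, 165 and 175 CPM in libraries of the METTL3 group, and the vector group had 80.6, 68.6 and 71.6 CPM. All METTL3 libraries were above all vector libraries, by 1.16 on the log2 scale (SE 0.117, edgeR quasi-likelihood test, adjusted p = 0.072), and an exact two-sided permutation test gave p = 0.1, the smallest that 3 against 3 libraries can give. Replicate 1 stood apart from replicates 2 and 3 in both groups, so the fits are given both with all 6 libraries and with replicates 2 and 3 alone. That subset was chosen on the values, and the labels name no batch. Its p-values leave out the spread that replicate 1 adds and are therefore likely too small. The 7 epithelial markers summed to between 7767 and 8717 CPM in METTL3 libraries and between 6246 and 9734 CPM in vector libraries. The 8 fibroblast markers summed to between 2.15 and 3.95 CPM over all 6. Decorin (DCN) and THY1 were under 0.1 CPM in every library, while PDGFRB reached 0.771 to 2.76 CPM and FBLN1 0.588 to 1.10 CPM. The endothelial markers summed to between 5.21 and 22.2 CPM, mostly PECAM1 (4.67 to 21.4 CPM). The leukocyte markers summed to between 7.45 and 11.7 CPM, mostly CD14 (7.02 to 11.4 CPM).

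Of the 44 genes, 21 averaged at least 1 CPM, and 4 of them, COL6A1, COL6A2, COL12A1 and COL13A1, made up between 75.6% and 80.6% of all collagen CPM in every library. Summed over the 44 genes, collagen chains reached 667, 916 and 894 CPM with METTL3 and 525, 1298 and 1234 CPM with vector. The vector libraries therefore held both the lowest and the highest sums. Per kilobase of the longest transcript, which allows genes to be compared, the order of mean levels began with COL6A1 at 65.9, COL6A2 at 56.9 and COL13A1 at 37.2 CPM per kb, followed by COL9A3 at 11.9, COL12A1 at 10.5 and COL7A1 at 6.16 CPM per kb. COL1A1, the major chain of fibrillar type I collagen, came ninth with a mean of 2.67 CPM per kb. In bulk RNA, fewer expressing cells and less RNA per cell cannot be told apart.

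**Figure D1:**
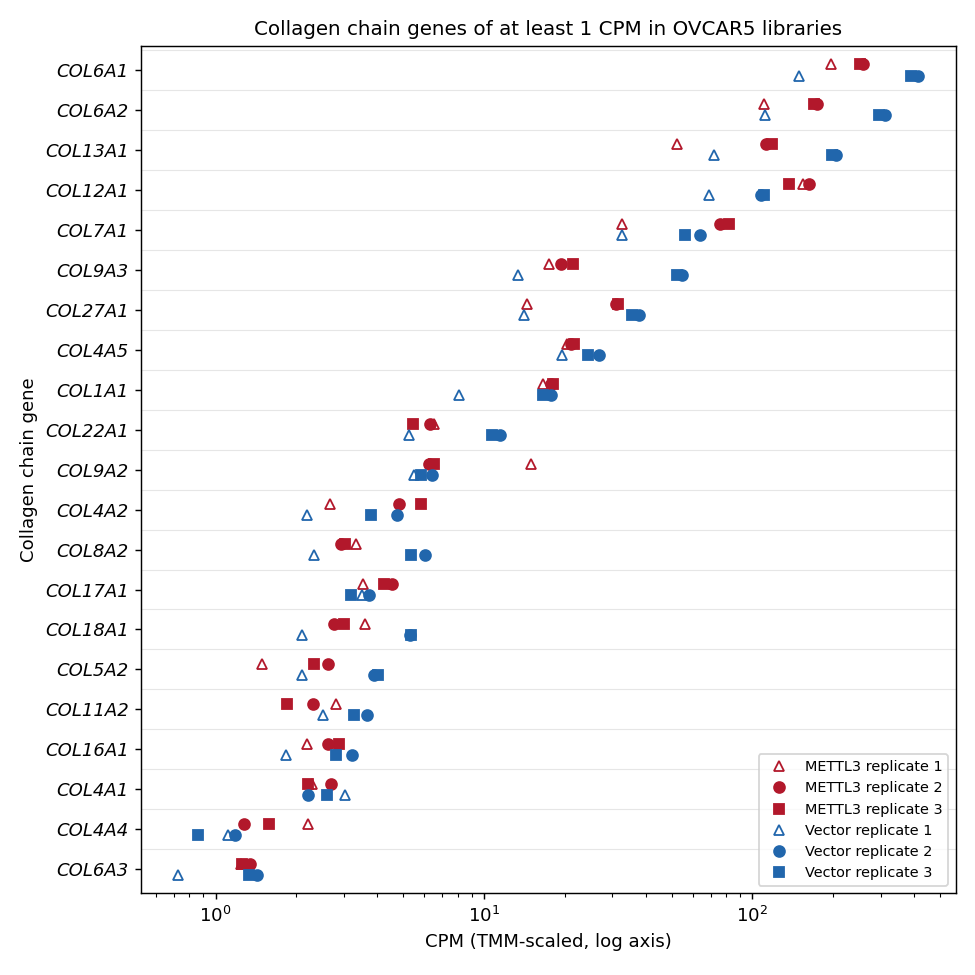
Level of each of the 21 collagen chain genes that averaged at least 1 CPM, in TMM-scaled CPM on a log axis, 1 point per library (red, METTL3; blue, vector; open triangles, replicate 1). For COL6A1 the vector libraries lie at 149, 415 and 390 CPM, on both sides of the METTL3 libraries at 196, 258 and 252 CPM, while for COL12A1 the METTL3 libraries all lie above the vector libraries.

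The promoters of some of the genes named below are shown first, among them COL4A2, whose start lies close to that of COL4A1. Whether promoter sequence bears on the differences between the groups was not tested. RefSeq promoter windows on GRCh38.p14, from 250 bases before to 50 bases after a transcription start, were matched by symbol for 32 of the 44 genes, with 44 windows in all. COL1A1, COL1A2, COL2A1, COL3A1, COL5A2, COL6A1, COL6A5, COL8A1, COL9A3, COL14A1, COL20A1 and COL22A1 had no matched window. The motifs searched, on both strands, were the TATA box TATAAA, the GC box GGGCGG and the CCAAT box CCAAT, and neighbouring matches to different motifs can share at most 2 letters. The TATA box occurred in 18.2% of collagen windows and in 11.5% of all 35116 windows of the same length, the GC box in 54.5% and 45.0%, and the CCAAT box in 31.8% and 34.6%. The 250 bases before the start are printed from 5′ to 3′ on the strand of the gene, with matches to any of these motifs, or to their reverse complements, in capitals. COL6A2 (chr21:46097862-46098111, plus strand) and COL13A1 (chr10:69801656-69801905, plus strand) are shown as the abundant genes that were lower with METTL3 in replicates 2 and 3, COL12A1 (chr6:75206054-75206303, minus strand) and COL7A1 (chr3:48595330-48595579, minus strand) as the genes that were higher, and COL4A2 (chr13:110307034-110307283, plus strand) as the partner of COL4A1.
COL6A2: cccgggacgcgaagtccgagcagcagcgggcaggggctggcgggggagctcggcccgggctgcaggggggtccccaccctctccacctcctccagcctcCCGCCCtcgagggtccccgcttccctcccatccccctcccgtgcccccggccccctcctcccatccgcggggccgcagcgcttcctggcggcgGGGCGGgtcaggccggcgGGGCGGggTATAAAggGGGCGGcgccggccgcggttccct
COL13A1: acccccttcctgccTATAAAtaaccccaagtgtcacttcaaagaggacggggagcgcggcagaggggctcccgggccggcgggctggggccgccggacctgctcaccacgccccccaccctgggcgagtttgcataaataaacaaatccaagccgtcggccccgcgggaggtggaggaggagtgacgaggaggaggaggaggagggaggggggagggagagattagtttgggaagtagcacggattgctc
COL12A1: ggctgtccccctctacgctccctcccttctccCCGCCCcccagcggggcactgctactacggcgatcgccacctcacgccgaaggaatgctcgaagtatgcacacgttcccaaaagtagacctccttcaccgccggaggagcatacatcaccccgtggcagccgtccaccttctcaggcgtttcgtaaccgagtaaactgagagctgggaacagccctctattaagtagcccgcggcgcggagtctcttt
COL7A1: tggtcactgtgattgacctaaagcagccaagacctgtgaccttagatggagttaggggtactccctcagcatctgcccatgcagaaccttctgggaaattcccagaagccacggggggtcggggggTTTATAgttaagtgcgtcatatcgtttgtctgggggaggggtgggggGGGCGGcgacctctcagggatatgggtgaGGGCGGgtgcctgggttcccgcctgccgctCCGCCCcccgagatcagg
COL4A2: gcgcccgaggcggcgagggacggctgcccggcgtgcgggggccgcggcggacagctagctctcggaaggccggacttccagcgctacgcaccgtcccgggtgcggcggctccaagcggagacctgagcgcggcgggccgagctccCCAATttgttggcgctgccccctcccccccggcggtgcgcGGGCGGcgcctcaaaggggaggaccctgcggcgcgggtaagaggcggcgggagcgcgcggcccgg
In these bases COL6A2 holds a TATA match near the start and several GC boxes, COL7A1 holds several GC boxes and a TATA match further upstream, COL13A1 holds a TATA match further upstream still and no GC box, and COL12A1 holds a GC box and no TATA box. A TATA match is present both in COL6A2, which was lower, and in COL7A1, which was higher. A match is a description of the sequence only.

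The type VI chain genes COL6A1 and COL6A2 had the most abundant transcripts of the family, and both were lower with METTL3 in replicates 2 and 3. COL6A1 (ENSG00000142156.16, chr21:45981770-46005050, GRCh38, plus strand) measured 196, 258 and 252 CPM with METTL3 and 149, 415 and 390 CPM with vector. The vector libraries of replicates 2 and 3 were the highest and vector replicate 1 the lowest, so the groups overlapped. Over 6 libraries the log2 fold change was -0.43 (SE 0.338, edgeR adjusted p = 0.716), and over replicates 2 and 3 it was -0.66 (SE 0.0528, edgeR adjusted p = 1.39e-06). COL6A2 (ENSG00000142173.16, chr21:46098112-46132848, plus strand), which begins 116342 bases further along the chromosome, measured 110, 174 and 170 CPM with METTL3 and 112, 313 and 297 CPM with vector. Here the replicate 1 libraries of both groups were nearly equal and the vector libraries of replicates 2 and 3 were the highest. Its log2 fold change was -0.67 over 6 libraries (SE 0.359, edgeR adjusted p = 0.639) and -0.83 over replicates 2 and 3 (SE 0.0524, edgeR adjusted p = 2.31e-07).

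The ratio of COL6A1 to COL6A2 per kilobase was 1.46, 1.22 and 1.22 with METTL3 and 1.09, 1.09 and 1.08 with vector. Every METTL3 ratio was thus above every vector ratio. Other pairs that were compared also separated, COL6A1 over COL6A3 with METTL3 below vector. COL11A2 over COL11A1 separated with METTL3 above, at few counts of COL11A1. No test of these ratios was run. The range of COL6A1 over COL6A2 was narrow, from 1.08 to 1.46, beside that of COL6A1, from 35.4 to 98.9 CPM per kb. COL6A3, which encodes the large partner chain of the classical type VI molecule, did not share this abundance. It measured 1.24, 1.34 and 1.26 CPM with METTL3 and 0.727, 1.42 and 1.33 CPM with vector, and only vector replicate 1 stood apart. COL6A1 exceeded COL6A3 by between 396-fold and 735-fold per kilobase of the longest transcript, and by between 615-fold and 1139-fold per kilobase of all exons. The COL6A3 difference was 0.14 over 6 libraries (SE 0.278, edgeR adjusted p = 0.898) and -0.08 over replicates 2 and 3 (SE 0.193, edgeR adjusted p = 0.837) on the log2 scale. COL6A5 and COL6A6, which encode alternatives to COL6A3, had between 14 and 46 counts and between 3 and 8 counts per library.

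COL13A1 (ENSG00000197467.17, chr10:69801880-69964275, plus strand) encodes a transmembrane collagen found at sites of cell adhesion and at the neuromuscular junction. It measured 52.5, 113 and 118 CPM with METTL3 and 71.6, 204 and 198 CPM with vector. Within each replicate number the METTL3 library was the lower, yet the groups overlapped because replicate 1 was low in both. The log2 fold change was -0.75 over 6 libraries (SE 0.418, edgeR adjusted p = 0.647) and -0.81 over replicates 2 and 3 (SE 0.0525, edgeR adjusted p = 3e-07). COL17A1, the transmembrane collagen of hemidesmosomes, measured 3.55, 4.56 and 4.23 CPM with METTL3 and 3.51, 3.73 and 3.20 CPM with vector. Its groups overlapped only because METTL3 replicate 1 lay below vector replicate 2, and the METTL3 library was the higher within each replicate number. The COL17A1 log2 fold change was 0.24 over 6 libraries (SE 0.176, edgeR adjusted p = 0.696) and 0.34 over replicates 2 and 3 (SE 0.128, edgeR adjusted p = 0.0947).

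Among FACIT chains, COL9A3 showed the largest difference of the 21 genes over replicates 2 and 3. COL9A3 (ENSG00000092758.18, chr20:62816244-62841159, plus strand) encodes a chain of type IX collagen, best known from cartilage, where it coats type II fibrils. The levels were 17.5, 19.3 and 21.4 CPM with METTL3 and 13.4, 54.8 and 52.6 CPM with vector. The METTL3 libraries were close to each other, and the vector libraries fell on both sides of them. Over 6 libraries the log2 fold change was -1.06 (SE 0.437, edgeR unadjusted p = 0.0408, adjusted p = 0.59), and over replicates 2 and 3 it was -1.40 (SE 0.0663, edgeR adjusted p = 1.99e-08). TCFL5 exons on the opposite strand cover 3.20% of the exonic bases of COL9A3, and whether the counting used strand is not given in the sources used here.

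The partner chains of COL9A3 did not follow it. COL9A2 measured 15.02, 6.25 and 6.50 CPM with METTL3 and 5.48, 6.38 and 5.85 CPM with vector, so that METTL3 replicate 1 alone was high, and its log2 fold change was 0.65 over 6 libraries (SE 0.328, edgeR adjusted p = 0.632) and 0.058 over replicates 2 and 3 (SE 0.103, edgeR adjusted p = 0.783). The ratio of COL9A3 to COL9A2 per kilobase ranged from 1.34 in METTL3 replicate 1 to 10.4 in vector replicate 3. COL9A1, the remaining chain of the type IX molecule, had 14 counts in total over the 6 libraries and 0 counts in 3 of them, where 3 counts would correspond to at most 0.0316 CPM. COL22A1 (ENSG00000169436.17), a FACIT chain of tissue junctions such as that between muscle and tendon, measured 6.49, 6.32 and 5.44 CPM with METTL3 and 5.26, 11.4 and 10.7 CPM with vector. Vector replicate 1 was the lowest of all, and vector replicates 2 and 3 were the highest. Its log2 fold change was -0.59 over 6 libraries (SE 0.277, edgeR adjusted p = 0.617) and -0.91 over replicates 2 and 3 (SE 0.101, edgeR adjusted p = 2.43e-05). The study lists COL22A1 among genes it chose on these libraries together with METTL3 knockdown libraries. The direction of COL22A1 here is therefore not independent evidence. The log2 fold change that the study lists for COL22A1 is nearer to that over replicates 2 and 3 than to that over 6 libraries. Its methods do not state whether all 6 libraries were used. COL16A1, a FACIT chain of several tissues, measured 2.20, 2.62 and 2.87 CPM with METTL3 and 1.82, 3.23 and 2.81 CPM with vector, and the groups overlapped. The COL16A1 difference on the log2 scale was -0.034 over 6 libraries (SE 0.247, edgeR adjusted p = 0.978) and -0.14 over replicates 2 and 3 (SE 0.145, edgeR adjusted p = 0.601).

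**Figure D2:**
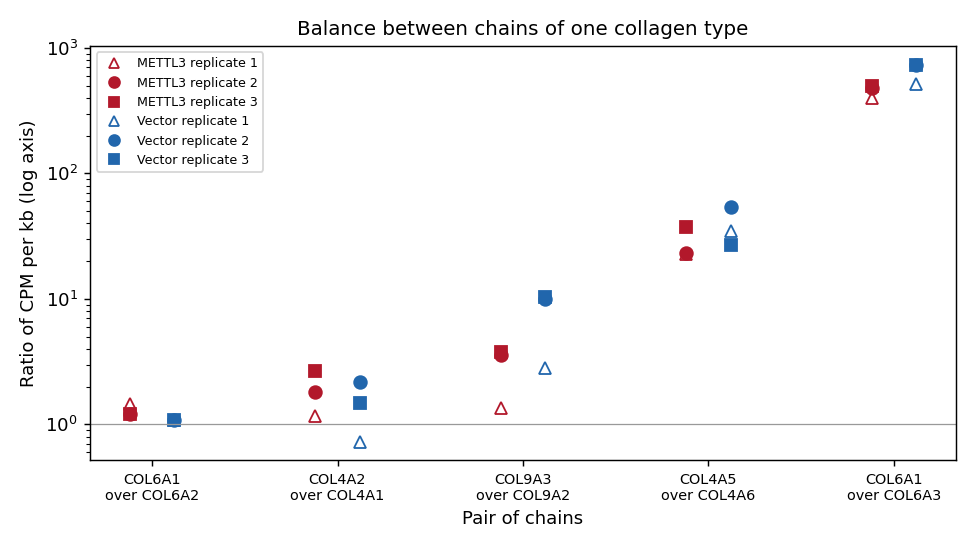
Ratio of the levels of chains of 1 collagen type in each library, in CPM per kb of transcript on a log axis (red, METTL3; blue, vector; open triangles, replicate 1; the grey line marks equal levels). COL6A1 over COL6A2 stays between 1.08 and 1.46, with every METTL3 library above every vector library. COL9A3 over COL9A2 ranges from 1.34 to 10.4. COL6A1 over COL6A3 ranges from 396 to 735, with every METTL3 library below every vector library.

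COL12A1 was the abundant collagen that was higher with METTL3. COL12A1 (ENSG00000111799.22, chr6:75084326-75206267, minus strand) encodes a FACIT chain that bridges fibrils in stress-bearing tissue. Its levels were 154, 162 and 136 CPM with METTL3 and 69.0, 108 and 110 CPM with vector. Every METTL3 library was above every vector library, with a mean of 151 ± 13.1 CPM (SD, n = 3) for METTL3 against 95.5 ± 22.99 CPM (SD, n = 3) for vector. The fitted log2 fold change was 0.66 over 6 libraries (SE 0.184, edgeR unadjusted p = 0.00673, adjusted p = 0.439) and 0.45 over replicates 2 and 3 (SE 0.0722, edgeR adjusted p = 0.000797). COL7A1 (ENSG00000114270.18, chr3:48564073-48595329, minus strand), the chain of the anchoring fibrils that hold epithelium to the underlying stroma, measured 32.7, 75.9 and 81.6 CPM with METTL3 and 32.6, 63.9 and 55.9 CPM with vector. The replicate 1 libraries were equal and low, and in replicates 2 and 3 the METTL3 libraries were above the vector libraries. The log2 fold change was 0.32 over 6 libraries (SE 0.354, edgeR adjusted p = 0.801) and 0.39 over replicates 2 and 3 (SE 0.0669, edgeR adjusted p = 0.00107).

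Of the fibrillar chains, COL27A1 was the most abundant and COL1A1 came next. COL27A1, known from cartilage, measured 14.4, 30.9 and 31.7 CPM with METTL3 and 14.04, 37.7 and 35.7 CPM with vector. Replicate 1 was low in both groups. The log2 fold change was -0.18 over 6 libraries (SE 0.400, edgeR adjusted p = 0.907) and -0.23 over replicates 2 and 3 (SE 0.0612, edgeR adjusted p = 0.0192). In the latter, with the trend of GC content and length removed, the edgeR adjusted p was 0.0768. COL1A1 measured 16.5, 17.7 and 18.1 CPM with METTL3 and 8.04, 17.7 and 16.6 CPM with vector. Only vector replicate 1 stood apart, and the log2 fold change was 0.30 over 6 libraries (SE 0.267, edgeR adjusted p = 0.748) and 0.06 over replicates 2 and 3 (SE 0.0725, edgeR adjusted p = 0.68). Its partner COL1A2, the second chain of the usual type I molecule, had 14 counts over the 6 libraries against 10492 for COL1A1. COL3A1, the chain of type III collagen and a product of fibroblasts, had between 8 and 32 counts per library.

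COL5A2 and COL11A2 encode chains of the minor fibrillar collagens that set fibril diameter. COL5A2 measured 1.49, 2.61 and 2.32 CPM with METTL3 and 2.10, 3.89 and 4.03 CPM with vector. The METTL3 library was the lower within each replicate number. Its log2 fold change was -0.64 over 6 libraries (SE 0.309, edgeR adjusted p = 0.621) and -0.68 over replicates 2 and 3 (SE 0.137, edgeR adjusted p = 0.00333). COL11A2 stood at 2.81, 2.30 and 1.84 CPM with METTL3 and 2.52, 3.67 and 3.29 CPM with vector. The groups overlapped through METTL3 replicate 1. The COL11A2 difference was -0.45 over 6 libraries (SE 0.231, edgeR adjusted p = 0.634) and -0.74 over replicates 2 and 3 (SE 0.156, edgeR adjusted p = 0.00461) on the log2 scale.

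The basement membrane chains of type IV lie in head-to-head pairs, each pair on opposite strands. Their RefSeq starts are 127 bases apart for COL4A1 and COL4A2, 419 for COL4A3 and COL4A4 and, with the nearer of the COL4A6 starts, 380 for COL4A5 and COL4A6. In GENCODE 44, whose gene bounds differ, COL4A2 (chr13:110305812-110513209) begins inside COL4A1 (chr13:110148963-110307157). COL4A1, the most widespread type IV chain, measured 2.30, 2.69 and 2.22 CPM with METTL3 and 3.05, 2.20 and 2.61 CPM with vector. COL4A2, its partner in the common type IV molecule, measured 2.66, 4.82 and 5.81 CPM with METTL3 and 2.19, 4.74 and 3.80 CPM with vector. The groups overlapped for both genes. COL4A2 was low in replicate 1 of both groups and COL4A1 was not, so that the ratio of COL4A2 to COL4A1 per kilobase ranged from 0.73 to 2.65. For COL4A1 the log2 fold change was -0.12 over 6 libraries (SE 0.199, edgeR adjusted p = 0.865) and 0.03 over replicates 2 and 3 (SE 0.166, edgeR adjusted p = 0.94). For COL4A2 it was 0.31 in both, with an SE of 0.350 (edgeR adjusted p = 0.808) and 0.135 (edgeR adjusted p = 0.155).

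COL4A5, a chain of kidney and other specialised basement membranes, was the most abundant type IV chain and measured 20.4, 21.0 and 21.6 CPM with METTL3 and 19.6, 26.8 and 24.5 CPM with vector. Vector replicate 1 was the lowest library and the other vector libraries were the highest. Its log2 fold change was -0.17 over 6 libraries (SE 0.142, edgeR adjusted p = 0.736) and -0.27 over replicates 2 and 3 (SE 0.0694, edgeR adjusted p = 0.0164). It exceeded COL4A6 by between 22.9-fold and 54.1-fold per kilobase. COL4A4, which joins COL4A3 and COL4A5 in the filter of the kidney, measured 2.22, 1.27 and 1.58 CPM with METTL3 and 1.12, 1.19 and 0.860 CPM with vector. All METTL3 libraries were above all vector libraries, although METTL3 replicate 2 and vector replicate 2 were close. The log2 fold change was 0.68 over 6 libraries (SE 0.267, edgeR unadjusted p = 0.0334, adjusted p = 0.568) and 0.47 over replicates 2 and 3 (SE 0.226, edgeR adjusted p = 0.197).

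COL8A2 and COL18A1 repeated the pattern of COL9A3 at a lower level. COL8A2, a chain of the network collagen of the corneal endothelium, measured 3.34, 2.93 and 3.04 CPM with METTL3 and 2.32, 6.04 and 5.35 CPM with vector. Vector replicate 1 was the lowest, and the remaining vector libraries were the highest. For COL8A2 the fitted log2 fold change was -0.56 over 6 libraries (SE 0.324, edgeR adjusted p = 0.65) and -0.93 over replicates 2 and 3 (SE 0.121, edgeR adjusted p = 0.000101). COL18A1, the multiplexin whose C-terminal fragment is endostatin, measured 3.60, 2.77 and 3.00 CPM with METTL3 and 2.10, 5.32 and 5.33 CPM with vector. The 2 replicate 1 libraries again had the opposite order to replicates 2 and 3. The COL18A1 log2 fold change was -0.45 over 6 libraries (SE 0.337, edgeR adjusted p = 0.708) and -0.89 over replicates 2 and 3 (SE 0.121, edgeR adjusted p = 0.000154). SLC19A1 exons on the opposite strand cover 18.5% of the exonic bases of COL18A1, so reads of the 2 genes cannot be told apart unless strand was used.

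With all 6 libraries, no collagen chain gene passed an adjusted p of 0.05 among the 34 that could be tested, against a background of 0% of all genes tested in edgeR's quasi-likelihood test. DESeq2 on the same libraries called 0 of the 27 to which it gave an adjusted p, against 1.47% of all genes. At an unadjusted p under 0.05, 2 of 34 were higher with METTL3, COL12A1 and COL4A4, against 4.4% of all genes, and 1 was lower, COL9A3, against 3.91%. With the replicate number as a block these counts were 2 higher, against 6.05% of all genes, and 4 lower, against 5.2%. The 4 were COL6A2, COL13A1, COL5A2 and COL14A1, with none passing after adjustment. The libraries of the groups did not overlap for the same 2 genes on the higher side, against 8.47% of all genes, and for COL24A1 on the lower side, against 8.93%. These shares are near or below the background, apart from the lower side under the block.

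Over replicates 2 and 3 alone, the subset chosen on the values, 37 collagen chain genes could be tested. Lower with METTL3 were 11 of the 37 (COL9A3, COL8A2, COL22A1, COL18A1, COL6A2, COL13A1, COL11A2, COL5A2, COL6A1, COL4A5 and COL27A1), against 8.59% of all genes, and 2 were higher, COL12A1 and COL7A1, against 6.66%. All 13 averaged at least 1 CPM, and among all genes of that level 11.6% were lower and 9.55% higher. Only COL9A3 was lower by more than 2-fold. By class, the lower genes were 3 of 8 tested fibrillar chains, 2 of 9 FACIT chains, 2 of 6 beaded filament and related chains, and 1 each of 5 type IV, 4 anchoring and network, 2 multiplexin and 3 transmembrane chains. The median log2 fold change of the collagen genes was -0.20, against -0.003 for all genes, and with 6 libraries it was -0.15 against -0.02. All 7 epithelial markers were higher with METTL3 in replicates 2 and 3, with CDH1 (E-cadherin) higher by 0.91 and EPCAM by 0.71 on the log2 scale. Between the replicate 1 libraries 5 of the 7 were lower with METTL3, while CDH1 was higher by 1.13 and CLDN4 by 0.17 on the log2 scale. Over 6 libraries 1 of the 7, CDH1, was higher at an unadjusted p under 0.05 in edgeR, against 4.4% of all genes. The part of these markers in the collagen differences was not tested.

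**Figure D3:**
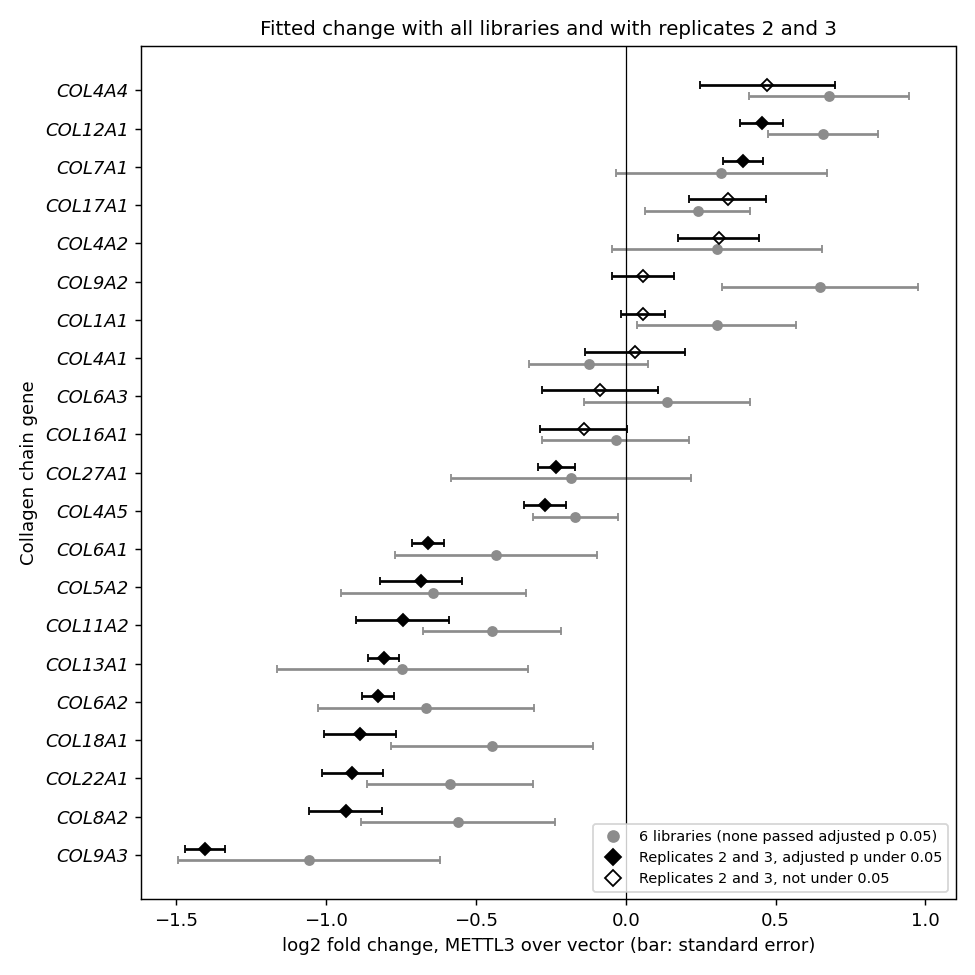
Fitted log2 fold change, METTL3 over vector, with its standard error for the 21 collagen chain genes of at least 1 CPM, over 6 libraries (grey) and over replicates 2 and 3 (black; filled where the adjusted p is under 0.05). With 6 libraries none passed, and over replicates 2 and 3 the filled points are 11 lower genes, from COL9A3 at -1.40 to COL27A1 at -0.23, and 2 higher genes, COL12A1 at 0.45 and COL7A1 at 0.39.

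The replicate 1 libraries did not repeat the lower values. Between METTL3 replicate 1 and vector replicate 1, with 0.1 CPM added before the log2, only 3 of these 11 genes were lower, namely COL5A2 by -0.47, COL13A1 by -0.45 and COL6A2 by -0.01, and 8 were higher, up to 0.75 for COL18A1. COL12A1 was higher by 1.16 there and COL7A1 by 0.01. Much of this lay in the vector group. In vector replicate 1, 18 of the 21 genes (85.7%) were below both other vector libraries, whereas 44.5% of all genes of that level were. In METTL3 replicate 1 the same held for 13 of the 21 (61.9%), against 48.9% of all genes. Relative to the mean of vector replicates 2 and 3, vector replicate 1 differed by -1.44 for COL6A1, -1.45 for COL6A2, -1.49 for COL13A1 and -1.99 for COL9A3 on the log2 scale. These differences within 1 group are larger than those between the groups in replicates 2 and 3.

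When vector replicate 1 alone was left out, 4 of 37 tested genes were lower with METTL3, against 0.946% of all genes, and 0 were higher, against 0.676%. The 4 were COL9A3 at -1.47 (edgeR adjusted p = 0.00708), COL22A1 at -0.86 (edgeR adjusted p = 0.0322), COL8A2 at -0.88 (edgeR adjusted p = 0.0415) and COL6A1 at -0.77 (edgeR adjusted p = 0.0421) on the log2 scale. The comparison of collagen chain genes therefore differed with the presence of this library, and which of the libraries reflects the usual state of each cell line cannot be told from 3 libraries a group.

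**Figure D4:**
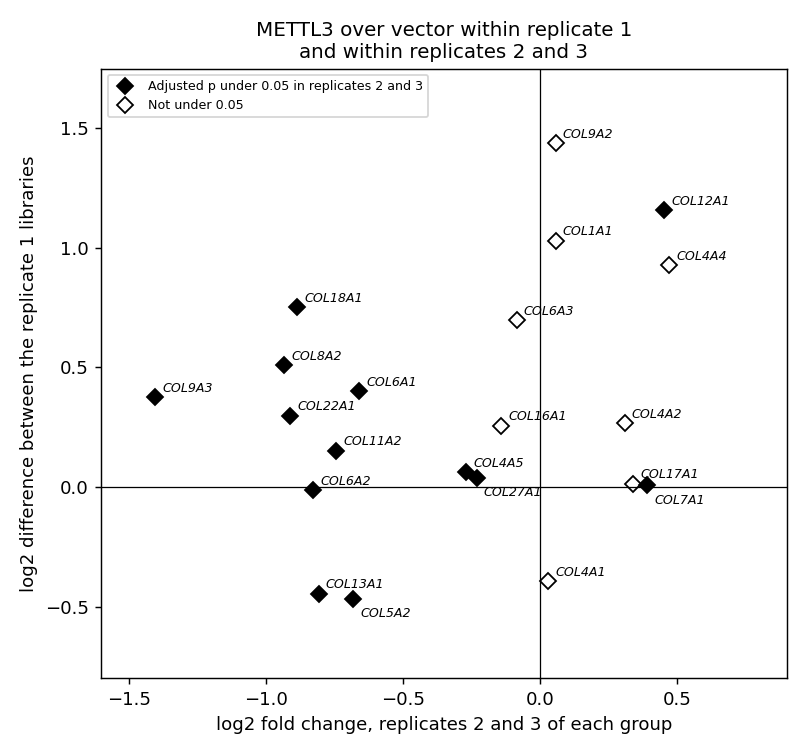
Difference between the METTL3 and vector libraries of replicate 1 (vertical axis, log2 of CPM with 0.1 added) against the log2 fold change over replicates 2 and 3 (horizontal axis) for the 21 collagen chain genes of at least 1 CPM; filled points passed an adjusted p of 0.05 over replicates 2 and 3. Of the 11 filled points to the left of 0, 3 lie below the horizontal line and 8 above it, while COL12A1 and COL7A1 lie above 0 on both axes.

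The remaining 23 genes averaged below 1 CPM. Of these, 13 could be tested on 6 libraries, with means from 0.101 to 0.788 CPM, and none passed an adjusted p of 0.05 in either comparison. The highest were COL14A1, a FACIT chain of dense connective tissue, with 37 to 123 counts per library, and COL4A6, with 55 to 115. COL14A1 measured 1.09, 0.492 and 0.367 CPM with METTL3 and 1.21, 0.894 and 0.670 CPM with vector. Its groups overlapped because METTL3 replicate 1 lay above vector replicates 2 and 3, although the METTL3 library was the lower within each replicate number. The COL14A1 log2 fold change was -0.50 over 6 libraries (SE 0.426, edgeR adjusted p = 0.737) and -0.86 over replicates 2 and 3 (SE 0.292, edgeR adjusted p = 0.0654). COL8A1, the usual partner of COL8A2, varied from 4 to 72 counts with no order by group. COL24A1, a minor fibrillar chain, had 12, 10 and 11 counts with METTL3 and 12, 16 and 16 with vector, a separation of a few counts. The 10 genes that could not be tested on 6 libraries, among them COL1A2, COL2A1 of cartilage, COL11A1, COL5A3 and COL9A1, had between 0 and 22 counts per library and means up to 0.0963 CPM, too few to show a difference at this depth.

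The 60 genes listed for the making, binding and breakdown of collagen were measured beside the chains, and 57 could be tested. With 6 libraries 0 passed an adjusted p of 0.05 in edgeR, and at an unadjusted p 6 were higher, against 4.4% of all genes, and 3 lower, against 3.91%. Over replicates 2 and 3, 4 were higher after adjustment, a share near the 6.66% of all genes, and 16 lower, against 8.59%, with a median log2 fold change of -0.10 against -0.003 for all genes. Among the lower genes, P3H2, P3H3 and LOXL2 were, like COL6A2 and COL13A1, lowest in both replicate 1 libraries and highest in vector replicates 2 and 3.

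Of 15 chain modification enzymes, 2 were higher and 5 lower over replicates 2 and 3 (all genes, 6.66% and 8.59%). P3H3, a member of the prolyl 3-hydroxylase family, measured 21.4, 28.4 and 30.3 CPM with METTL3 and 21.8, 52.7 and 49.1 CPM with vector. P3H2, which hydroxylates proline in type IV chains, stood at 154, 227 and 219 CPM with METTL3 and 138, 327 and 323 CPM with vector. In both, vector replicates 2 and 3 were the highest libraries and replicate 1 was low in either group, and the log2 fold changes over replicates 2 and 3 were -0.80 for P3H3 (edgeR adjusted p = 1.16e-06) and -0.54 for P3H2 (edgeR adjusted p = 6.25e-06), against -0.63 (edgeR adjusted p = 0.622) and -0.39 (edgeR adjusted p = 0.721) over 6 libraries. PLOD1, a lysyl hydroxylase, had -0.35 over replicates 2 and 3 (edgeR adjusted p = 0.000237) and -0.16 over 6 libraries (edgeR adjusted p = 0.831). P4HB, the shared subunit of prolyl 4-hydroxylase, measured 1124, 959 and 923 CPM with METTL3 and 768, 810 and 782 CPM with vector. All METTL3 libraries were above all vector libraries, and its log2 fold change was 0.35 over 6 libraries (edgeR adjusted p = 0.562) and 0.24 over replicates 2 and 3 (edgeR adjusted p = 0.00477).

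Among 10 genes of folding and secretion, 0 were higher and 3 lower over replicates 2 and 3 (all genes, 6.66% and 8.59%). SERPINH1 (HSP47), the chaperone of the collagen triple helix, measured 214, 233 and 242 CPM with METTL3 and 233, 248 and 246 CPM with vector. The libraries lay close together, with a log2 fold change of -0.08 over 6 libraries (SE 0.110, edgeR adjusted p = 0.844) and -0.06 over replicates 2 and 3 (SE 0.0508, edgeR adjusted p = 0.526). CREB3L1, a transcription factor of the secretory pathway known to act on collagen genes, measured 16.6, 8.46 and 7.62 CPM with METTL3 and 8.77, 12.1 and 10.5 CPM with vector. METTL3 replicate 1 was the highest library, the other METTL3 libraries were the lowest, and the log2 fold change was 0.06 over 6 libraries (edgeR adjusted p = 0.967) and -0.49 over replicates 2 and 3 (edgeR adjusted p = 0.00311). SEC23A, a coat protein of the vesicles that carry procollagen, and TMEM38B, an ion channel of the endoplasmic reticulum, had log2 fold changes of -0.23 (edgeR adjusted p = 0.00743) and -0.19 (edgeR adjusted p = 0.0442) over replicates 2 and 3. Over 6 libraries they were -0.17 (edgeR adjusted p = 0.679) and -0.22 (edgeR adjusted p = 0.616).

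Of 13 tested genes of trimming and cross-linking, 1 was higher and 4 were lower over replicates 2 and 3 (all genes, 6.66% and 8.59%). LOXL2, a lysyl oxidase that cross-links type IV collagen, measured 109, 177 and 170 CPM with METTL3 and 105, 281 and 275 CPM with vector. The replicate 1 libraries were nearly equal and vector replicates 2 and 3 were the highest, as for COL6A2. Its log2 fold change was -0.54 over 6 libraries (edgeR adjusted p = 0.669) and -0.69 over replicates 2 and 3 (edgeR adjusted p = 8.22e-07). Like COL22A1, LOXL2 is among the genes the study chose on these and the knockdown libraries, so its direction here is not independent evidence. The log2 fold change that the study lists for LOXL2 is likewise nearer to that over replicates 2 and 3. LOXL4 went the other way, at 110, 72.4 and 68.2 CPM with METTL3 and 46.2, 58.0 and 54.8 CPM with vector. All METTL3 libraries were above all vector libraries, by 0.65 over 6 libraries (edgeR adjusted p = 0.454) and 0.32 over replicates 2 and 3 (edgeR adjusted p = 0.00177) on the log2 scale. LOXL3, at 3.84 to 6.50 CPM, had a log2 fold change of -0.41 over 6 libraries (edgeR adjusted p = 0.609) and -0.44 over replicates 2 and 3 (edgeR adjusted p = 0.00947).

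Of 10 collagen receptors, 1 was higher and 2 were lower over replicates 2 and 3 (all genes, 6.66% and 8.59%). DDR1, the receptor kinase for collagen on epithelial cells, measured 495, 330 and 317 CPM with METTL3 and 251, 282 and 254 CPM with vector. The METTL3 libraries were all above the vector libraries, and the log2 fold change was 0.54 over 6 libraries (edgeR adjusted p = 0.546) and 0.27 over replicates 2 and 3 (edgeR adjusted p = 0.00555). ITGA11, a collagen-binding integrin subunit, had -0.59 over 6 libraries (edgeR adjusted p = 0.684) and -0.61 over replicates 2 and 3 (edgeR adjusted p = 0.00115). MRC2, the receptor that takes up collagen fragments, had -0.38 (edgeR adjusted p = 0.679) and -0.59 (edgeR adjusted p = 8.81e-05) in these comparisons. ITGB1, the beta subunit that all collagen-binding integrins share, measured 1426 to 1542 CPM with METTL3 and 1559 to 1828 CPM with vector, with a log2 fold change of -0.15 over 6 libraries (edgeR adjusted p = 0.733) and -0.05 over replicates 2 and 3 (edgeR adjusted p = 0.609). Of the 9 tested proteases and inhibitors, 0 were higher and 2 lower over replicates 2 and 3 (all genes, 6.66% and 8.59%). MMP14, a membrane-bound collagenase, had -0.10 over 6 libraries (edgeR adjusted p = 0.852) and -0.29 over replicates 2 and 3 (edgeR adjusted p = 0.00191). TIMP1, a soluble inhibitor of metalloproteinases, had -0.35 (edgeR adjusted p = 0.568) and -0.25 (edgeR adjusted p = 0.00659). TIMP1 measured 74.9, 99.4 and 101 CPM with METTL3 and 113, 115 and 122 CPM with vector, without overlap. TIMP3, an inhibitor held in the matrix, had a log2 fold change of 0.06 over 6 libraries (edgeR adjusted p = 0.95) and -0.25 over replicates 2 and 3 (edgeR adjusted p = 0.0613).

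Collagen transcripts share features that bear on how they are measured. In GENCODE 44 their median transcript length was 6408 bases, against 3798 bases for the 14873 protein-coding genes tested, and their median GC content was 54.8%, against 48.8%. DRACH, the 5-base context in which METTL3 places m6A (D is A, G or U, R is A or G, H is A, C or U), occurred 20.7 times per kilobase in the median collagen transcript and 18.7 times in the median protein-coding transcript. Across the 37 collagen genes tested in replicates 2 and 3, the log2 fold change had a Pearson correlation of -0.34 with GC content and 0.15 with DRACH density. With 34 genes and 6 libraries these were -0.19 and 0.22. These are descriptions across genes that share the same libraries, and no methylation was measured in these files. With the trend of GC content and length removed, 12 of the 13 calls over replicates 2 and 3 remained in the same direction. COL27A1 no longer passed. Genes that passed only with this removal were COL17A1 (edgeR adjusted p = 0.0245) and COL4A2 (edgeR adjusted p = 0.0341), both higher, and COL14A1 (edgeR adjusted p = 0.0491), lower.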

How the data were processed

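RNA-seq of 3 METTL3-overexpressing and 3 vector OVCAR5 libraries was analysed from a table of raw read counts per gene that the authors deposited. The submitters' processing notes name fastp, HISAT2, featureCounts (Subread) and hg38 (GRCh38). Versions, annotation release and strand setting are not given in the sources used here. The labels give a stranded, paired-end protocol and the study's methods another kit with single-end reads. Of 100 collagen counts from 1 to 20, 73% were even.

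Levels are TMM-scaled CPM, where 3 counts equal 0.0242 to 0.0316 CPM (counting error only), and per-kb values use the longest GENCODE 44 transcript. Genes passing filterByExpr were fitted with edgeR 4.0.16 (robust quasi-likelihood test, R 4.3.3), with Benjamini-Hochberg adjustment over all genes tested and a threshold of 0.05, after the code was tested on simulated data. DESeq2 1.42.0 was an alternative, although the study's methods name it. Other alternatives were another normalization, filters, halved counts, each library left out, replicates 2 and 3 alone, a replicate block, and removal of the GC and length trend. Named genes were every chain of at least 1 CPM or passing a test. In each pathway list they were the 3 genes with the smallest adjusted p in replicates 2 and 3 and the gene with the highest CPM per kb. Members and lists were chosen with earlier results of these data known.

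Libraries with the same replicate number deviated together from their group means, with correlations of 0.334, 0.12 and 0.175. They were treated as pairs only in the fits with a replicate block, and all other fits were unpaired. This pairing rests on the values, not on the labels. Libraries of replicates 2 and 3 also correlated across numbers (0.133 and 0.205), so the number does not settle which of those libraries pair.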

Additional observations from a re-analysis of the deposited data

How the results depend on the processing

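The count of collagen chain genes past an adjusted p of 0.05 (0 with 6 libraries) became 4 without a filter on low counts (COL9A3, COL12A1, COL6A2 and COL13A1) and 13 over replicates 2 and 3, and ranged from 0 to 4 when each library was left out, with 4 reached without vector replicate 1. For pathway genes (0) it became 4, 20 and 0 to 2, with 2 reached without vector replicate 1. Collagen genes higher at an unadjusted p (2) became 4 without a filter, 4 over replicates 2 and 3 and 1 with the GC and length trend removed, with 1 to 3 when a library was left out. Those lower (1) became 2 by DESeq2, 7 without a filter, 4 with the replicate block, 12 over replicates 2 and 3, 5 with the GC trend removed and 10 with that and the replicate block, with 0 to 10 when a library was left out, 10 being without vector replicate 1. The 2 genes higher over replicates 2 and 3 became 4 with the GC trend removed and 4 with the replicate block, both chosen after seeing the data.

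The METTL3 difference passed the threshold at 1.18 by DESeq2, 1.18 without a filter, 1.28 over replicates 2 and 3 and 1.24 with the GC trend removed, without or with the block, and ranged from 1.13 to 1.23 when a library was left out, passing only without vector replicate 1 (1.23, adjusted p = 0.00708). Direction held under every alternative for 17 of 21 named collagen genes and 14 of 18 pathway genes. Over replicates 2 and 3 the log2 fold change turned to 0.031 for COL4A1, -0.085 for COL6A3, -0.49 for CREB3L1 and -0.25 for TIMP3. CREB3L1 also turned to -0.028 with the replicate block and -0.054 with the block and GC correction. Leaving out a library gave -0.52 to 0.12 for COL27A1, -0.24 to 0.17 for COL16A1, -0.11 to 0.33 for COL6A3, -0.38 to 0.0046 for PLOD1, -0.36 to 0.27 for CREB3L1, -0.26 to 0.028 for MMP14 and -0.15 to 0.20 for TIMP3. The turns of sign came without vector replicate 1 (COL6A3, CREB3L1, TIMP3), vector replicate 2 (COL27A1, COL16A1, PLOD1, MMP14), vector replicate 3 (COL27A1, COL16A1) or METTL3 replicate 1 (COL27A1, COL16A1, CREB3L1, TIMP3), and the median log2 fold change of the collagen genes turned to 0.05 without vector replicate 3. The cause of these changes was not tested.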
